A study of Mus musculus with 4 samples.

Results

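The proteins of the mitochondrial ribosome are encoded in the nucleus. All 78 mouse genes whose symbol is Mrpl or Mrps followed by a number and at most 1 letter, of 32285 genes in the count tables, were taken, of which 49 carry Mrpl and 29 Mrps symbols. Their mRNA was measured in kidneys of wild-type C57BL/6J mice and of mice that carry a mutated trnE, which makes the glutamate transfer RNA of mitochondria. The trnE mutant group was 2 mice, with mutation loads of 79% (mutant 1) and 76% (mutant 2), and the wild-type group was 2 mice (wild type 1 and wild type 2). Cells were sorted as viable from dissociated whole kidney and sequenced with a droplet 3′ kit, so each unique molecular identifier (UMI) counts 1 captured mRNA molecule and levels need no scaling by gene length. Levels are given as CPM, the UMIs of a gene per 1000000 UMIs of the same library and cell class. The sources used here give no age, sex, litter, processing day or strain of the mutants. The genotype could not be read from the counts, which list no mitochondrial transfer RNA. Groups follow the labels, although the file of wild type 1 was deposited under a mutant-like name and that of mutant 1 under a number other than its load.

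Mitochondrial ribosomes translate the 13 mRNAs of the mitochondrial genome, all of which encode subunits of the respiratory chain and ATP synthase. Each ribosome has a small subunit, which decodes the mRNA, and a large subunit, which joins the amino acids and sits at the inner membrane. Some of the proteins have bacterial counterparts, and others are found only in mitochondrial ribosomes. Transfer RNAs act in the same step, since the ribosome waits for a charged transfer RNA at each codon. Proximal tubule, thick ascending limb, distal convoluted tubule and intercalated cells are rich in mitochondria, because their transport work rests on respiration.

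The promoters of the members that stood at both ends of the proximal tubule comparison are shown, since the members shared a direction there. Of the 78 members, 69 had a promoter in the RefSeq table of build GRCm38.p6, with 75 start sites in all, and Mrpl54 is named without a sequence. Each run is the 250 bases before the RefSeq start site, 5′ to 3′ on the strand of the gene. Capitals mark the core motifs searched on both strands, which were GCATGCG for NRF1, CCGGAAG for the ETS family, and AAGATGG for YY1, 3 kinds of factor known for binding promoters of nuclear genes of mitochondrial proteins. Mrps11 (chr7:78782881-78783130, plus strand), Mrpl58 (chr11:115403502-115403751, plus strand) and Mrpl39 (chr16:84735245-84735494, minus strand) had among the largest fitted changes. Mrpl1 (chr5:96209865-96210114), Mrps9 (chr1:42850983-42851232), Mrps5 (chr2:127587176-127587425) and Mrps27 (chr13:99344536-99344785), all on the plus strand, had the lowest.
Mrps11: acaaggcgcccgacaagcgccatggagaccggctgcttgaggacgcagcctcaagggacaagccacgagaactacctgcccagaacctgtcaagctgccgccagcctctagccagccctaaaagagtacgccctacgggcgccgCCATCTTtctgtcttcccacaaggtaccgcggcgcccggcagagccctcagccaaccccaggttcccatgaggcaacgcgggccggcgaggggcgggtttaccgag
Mrpl58: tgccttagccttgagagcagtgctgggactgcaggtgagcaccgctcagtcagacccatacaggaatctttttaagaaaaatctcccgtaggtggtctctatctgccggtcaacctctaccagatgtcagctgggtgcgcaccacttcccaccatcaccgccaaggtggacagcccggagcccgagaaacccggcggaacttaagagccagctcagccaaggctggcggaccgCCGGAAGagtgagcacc
Mrpl39: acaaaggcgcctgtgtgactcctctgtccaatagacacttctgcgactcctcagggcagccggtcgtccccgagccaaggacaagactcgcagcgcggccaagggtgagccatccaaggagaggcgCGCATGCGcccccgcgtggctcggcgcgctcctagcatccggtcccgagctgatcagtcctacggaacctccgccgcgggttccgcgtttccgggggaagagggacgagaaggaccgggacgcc
Mrpl1: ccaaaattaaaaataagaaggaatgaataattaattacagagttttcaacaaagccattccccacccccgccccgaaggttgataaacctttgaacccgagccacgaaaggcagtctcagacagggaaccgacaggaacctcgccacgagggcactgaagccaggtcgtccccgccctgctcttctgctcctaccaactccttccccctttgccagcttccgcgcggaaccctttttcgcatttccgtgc
Mrps9: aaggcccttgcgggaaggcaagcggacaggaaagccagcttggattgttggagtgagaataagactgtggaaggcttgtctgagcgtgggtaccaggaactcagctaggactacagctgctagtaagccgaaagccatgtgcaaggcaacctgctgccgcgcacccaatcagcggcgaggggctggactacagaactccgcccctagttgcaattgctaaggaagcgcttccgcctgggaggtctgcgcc
Mrps5: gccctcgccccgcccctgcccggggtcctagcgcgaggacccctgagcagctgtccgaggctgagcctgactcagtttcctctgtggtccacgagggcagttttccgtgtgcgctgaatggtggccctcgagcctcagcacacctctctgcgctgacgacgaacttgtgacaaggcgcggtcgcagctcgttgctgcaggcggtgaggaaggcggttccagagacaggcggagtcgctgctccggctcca
Mrps27: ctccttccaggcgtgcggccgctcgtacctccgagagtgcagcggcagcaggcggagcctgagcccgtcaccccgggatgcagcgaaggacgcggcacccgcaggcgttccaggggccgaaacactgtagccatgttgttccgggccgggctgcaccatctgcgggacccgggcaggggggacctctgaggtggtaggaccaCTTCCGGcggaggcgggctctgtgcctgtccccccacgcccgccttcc

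A motif stood in 4 of these 7 runs: YY1 in Mrps11, ETS in Mrpl58, NRF1 in Mrpl39 and ETS in Mrps27. Over all members, the NRF1 core was in 8 of 75 promoters (10.7%), against 3.02% of the 32851 promoters of the table. The ETS core was in 18 (24%), against 6.91%, and the YY1 core in 6 (8%), against 4.49%. At least 1 of the 3 was in 28 (37.3%), against 13.5%, and no 2 of them overlapped in a member's promoter. In the proximal tubule the median log2 fold change was 0.56 over the 28 genes with a motif and 0.50 over the 41 without, which is given with no test. A match is a run of letters and not a measured binding site. The gene positions of another annotation, GENCODE M21, differ for some of these genes. By them the Mrpl1 and Mrpl39 runs, with the NRF1 match of Mrpl39, lie inside the gene. The Mrps5 and Mrps11 runs do so in part.

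After filtering, 9507, 8849, 5678 and 6300 cells remained in mutant 1, mutant 2, wild type 1 and wild type 2, from libraries of 65565948, 70013861, 42121175 and 59946996 UMIs. Pairs of libraries shared 14 to 26 cell barcodes. Cells were clustered and named from markers, and the 8 classes with at least 50 cells in every library were tested, on UMIs added up within each library and class, which makes the mouse the replicate. The mutant libraries were made with Cell Ranger 7.0.0 and the wild-type ones with 7.1.0, per the file headers, so software and group cannot be told apart. The classes hold different cell numbers per library, down to 57 dendritic cells and 60 macrophages in wild type 2. The median cell held 25 to 29 UMIs of the 78 genes together, depending on the library, so single members were read from sums.

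Summed over the 78 genes, the level was highest in the transporting epithelium. The mean over the 4 libraries was 11129.7 CPM in intercalated cells, 8491 in thick ascending limb, 7937 in distal convoluted and connecting tubule and 7875 in proximal tubule. It lay at 4857 in NK cells, 4856 in T cells, 4482 in endothelium, 4469.7 in B cells, 4461 in dendritic cells, 4326 in monocytes, 3493 in macrophages, 3012 in neutrophils and 2415 in plasma cells. Intercalated cells ranged from 6978 to 13478 between libraries, with 37 cells in wild type 2, and so overlapped the 3 tubule classes that follow. The thick ascending limb (7804 to 9448), the distal class (7448 to 8961) and the proximal tubule (5418 to 9739.6) overlapped each other. Every class overlapped its neighbours in this order. The order of the 3 tubule classes rests on 1 gene, Mrps6, whose count is uncertain because the gene spans another on its strand. Without it their means were 7531 in thick ascending limb, 7577 in the distal class and 7838 in proximal tubule, the opposite order. Of the classes not tested, NK cells had 48 cells in their smallest library, endothelium 37, plasma cells 21 and neutrophils 6.

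Some single members differed more between classes than the sum did. Mrpl12, the counterpart of the bacterial stalk protein of the large subunit, averaged 354 CPM in proximal tubule, against a median of 84.2 over the 8 tested classes. Mrpl42, a large subunit protein, averaged 404 in thick ascending limb against a median of 94.6. Mrps21, of the small subunit, averaged 329.6 in proximal tubule against 146. In the immune classes other members led. Mrpl52, of the large subunit, was the most abundant member in T cells (238), macrophages (205), B cells (184) and dendritic cells (301). Mrpl33 was the most abundant in monocytes (339). These 2 were named after their values were seen.

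Mrps6, the small subunit counterpart of bacterial S6, stood apart. Its level in thick ascending limb was 722, 994, 1186 and 936 CPM in mutant 1, mutant 2, wild type 1 and wild type 2, a mean of 959 against a class median of 30.2. In the distal class it was 281, 366, 408 and 387, and in proximal tubule 43.9, 39.4, 38 and 28. The groups overlapped in thick ascending limb and did not in the other 2. This value is uncertain as a measure of Mrps6, because the gene (chr16:92058270-92112227, plus strand, GENCODE M21) spans Slc5a3 (chr16:92058322-92087473) on the same strand. Slc5a3, the sodium and myo-inositol cotransporter, was itself at 469, 341, 790.5 and 648 CPM in thick ascending limb. Reads of the 2 genes could be split either way by the counting, and this was not tested. Mrps24 and Mrps34 also overlap another coding gene on their strand (Urgcp and Nme3), and 30 members overlap a listed gene on the other strand.

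The first comparison asked whether the summed level differed between mutant and wild type. In proximal tubule the 78 genes made up 9739.6 and 8043 CPM in the mutants against 8299 and 5418 in the wild types. Mutant 1 was highest, wild type 2 lowest, and mutant 2 lay just below wild type 1, so the groups overlapped. The means were 8891 ± 1199 and 6859 ± 2037 (SD, n = 2 each), and the ratio of the geometric means was 1.32, with an exact two-sided permutation p of 0.667, and the smallest p that 2 against 2 allows is 0.333. With only nuclear UMIs as the total, the values were 10608.7 and 9704 against 9575 and 6129, which do not overlap (exact permutation p = 0.333).

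T cells had the same order of libraries, at 6119.6 and 4786 against 4878 and 3640.1 CPM. B cells (5416 and 4288 against 4469 and 3706) and monocytes (5631 and 4033 against 4315 and 3323) overlapped as well. Macrophages (4484 and 3421 against 3415 and 2649.8), dendritic cells (5353 and 4590.1 against 4399 and 3503) and thick ascending limb (9448 and 8829.9 against 7804 and 7880.45) did not overlap, with an exact permutation p of 0.333 each and 0.762 after Benjamini-Hochberg adjustment over the 8 classes. The distal class, at 8961 and 7448 against 7639 and 7702, had mutant 2 as its lowest library. Ratios of geometric means ran from 1.07 in the distal class to 1.32 in proximal tubule. The immune classes were not made of the same cells in each library. The B cell cluster led by Fcrl5 and Sox5 held 32, 187, 52 and 837 cells in mutant 1, mutant 2, wild type 1 and wild type 2. The B cell cluster led by Ighd held 142, 181, 173 and 64. Cluster shares also differed in T cells and macrophages, and the part of make-up in these levels was not tested. The log2 difference in the proximal tubule was set against that in each other class, and the 7 differences lay between 0.02 (macrophage) and 0.31 (distal class), none past the test (adjusted exact permutation p = 1 for each).

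**Figure D1:**
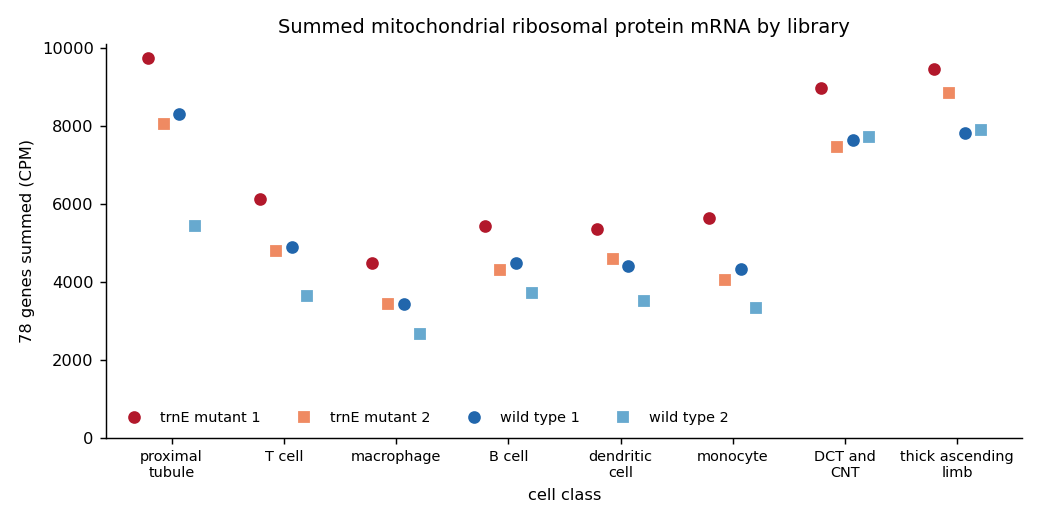
Summed CPM of the 78 genes (vertical axis, from 0) in 8 cell classes, 1 point per library; DCT and CNT is the distal convoluted and connecting tubule. Mutant 1 is the highest point in every class, from 4484 in macrophages to 9739.6 in proximal tubule, and mutant 2 lies near wild type 1 in most.

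Gene by gene, no member passed the test in any class. All 78 passed the filter on low counts in each class, and 0 were called by edgeR's quasi-likelihood test at an adjusted p of 0.05, or by DESeq2. The background was low as well: the share of all genes called was 0.323% in proximal tubule, 0% in T cells, 0.016% in macrophages, 0% in B cells, 0% in dendritic cells, 0.0324% in monocytes, 0.174% in the distal class and 0.097% in thick ascending limb. At an unadjusted p under 0.05, 0 members passed in proximal tubule against 9.61% of all genes, 4 in T cells against 3.5%, 14 in macrophages against 5.34% and 6 in B cells against 3.67%. The counts were 3 in dendritic cells against 5.77%, 2 in monocytes against 2.85% and 4 in the distal class against 12.8%. In thick ascending limb 24 of 78 members (edgeR) passed this unadjusted threshold, against 17.7% of all genes there. That count was 3 with DESeq2, 6 with library totals and 9 without mutant 1.

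The fitted values nevertheless leaned one way. Of the 78 members, 76 had a log2 fold change above 0 in proximal tubule, with a median of 0.52, where 51.3% of all genes were above 0 with a median of 0.02. The count was 77 in T cells (median 0.56), 77 in macrophages (0.62), 73 in B cells (0.46), 77 in dendritic cells (0.60), 74 in monocytes (0.48), 68 in the distal class (0.26) and 70 in thick ascending limb (0.45). In those classes the median over all genes lay between -0.03 and 0.01. Members move together within a library, so these counts are not independent, and the classes come from the same 4 mice. With library totals in place of TMM the median of all genes lay between -0.32 and -0.16, and the members' medians stood 0.28 to 0.63 above it.

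Both mutants exceeded both wild types in 31 of the 78 members in proximal tubule, against 15.7% of all genes. The count was 35 in T cells (11.6% of all genes), 36 in macrophages (11.8%), 22 in B cells (10.3%) and 49 in dendritic cells (12.1%). It was 16 in monocytes (12.1%), 20 in the distal class (14.7%) and 49 in thick ascending limb (16.8%). In proximal tubule mutant 1 was the highest library for 68 members and wild type 2 the lowest for 73, while mutant 2 was above wild type 1 for 32. Over all genes there, the shares were 22.7%, 24.5% and 38.5%.

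The size of the medians depended on single libraries, and in proximal tubule on the wild types. Without wild type 2 the proximal tubule median was 0.11, with 60 of 78 members above 0 and 0 called. Without wild type 1 it was 1.14, with all 78 above 0 and 65 called by edgeR, where 18.2% of all genes were called. In those 2 fits the lone wild-type library is assumed to vary like the mutants. Without wild type 1 the test also called 9 members in macrophages (2.58% of all genes), 6 in thick ascending limb (8.95%), 4 in the distal class (8.4%: Mrpl40, Mrpl58, Mrps15 and Mrps7), 3 in dendritic cells (3.01%: Mrpl35, Mrpl45 and Mrps11) and 1 in B cells (3.5%: Mrps11). Mrpl41 was called in monocytes without mutant 2 (1.9%) and Mrpl27 in thick ascending limb without wild type 2 (2.61%). Mrpl23 was called in macrophages with the library number as a block (0.68%). Without mutant 1 the median fell to 0.13 in monocytes, 0.27 in T cells and 0.32 in macrophages, and without wild type 2 to 0.27, 0.32 and 0.42. In thick ascending limb the median stayed between 0.40 and 0.55 whichever library was left out.

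**Figure D2:**
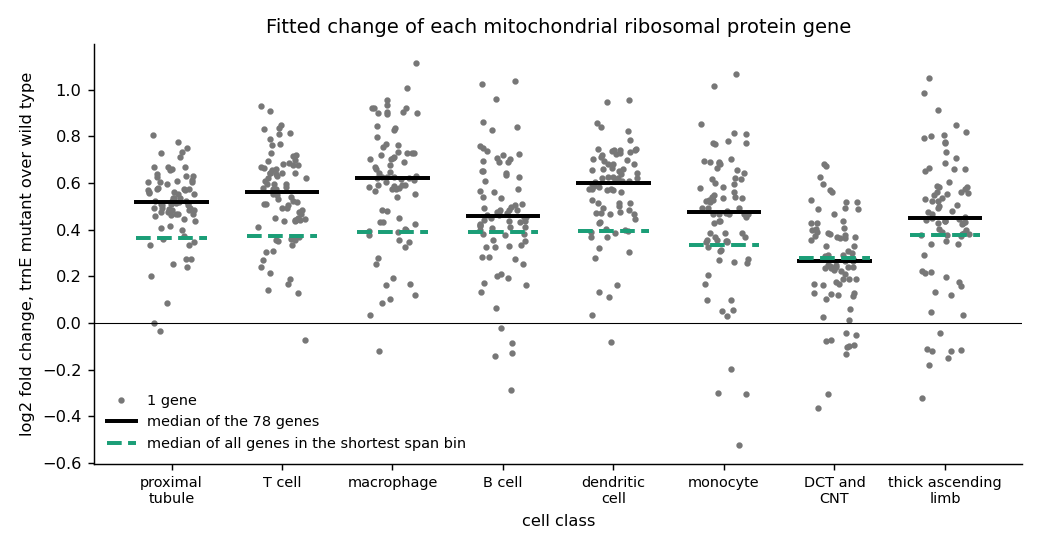
Fitted log2 fold change of each of the 78 genes in 8 classes (vertical axis), with their median as a black bar and the median of all tested genes in the shortest of 4 bins of gene span as a dashed green bar. The black bar lies above the green one in 7 classes and slightly below it in DCT and CNT, the distal convoluted and connecting tubule (0.26 and 0.28).

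The largest fitted changes in proximal tubule were those of Mrps11, Mrpl54, Mrpl58 and Mrpl39. Mrps11, of the small subunit, was at 59.9 and 57.2 CPM in the mutants against 46.2 and 28.4 in the wild types of the proximal tubule. Both mutants were above both wild types, with a log2 fold change of 0.81 (SE 0.40, edgeR adjusted p = 0.562), the largest of the 78. Mrpl54 was at 153 and 131 against 109 and 75.9, and its log2 fold change was 0.78. Mrpl58, a peptidyl-tRNA hydrolase built into the large subunit, was at 155 and 122 against 119 and 61.4. Mrpl39, also of the large subunit, was at 63.7 and 60.9 against 57.5 and 24.6. In each of these 4, which were picked for their fitted change, wild type 2 was the lowest library and the groups did not overlap. Of all 78 members there, wild type 2 was lowest for 73. Both mutants were above both wild types for 31, against 15.7% of all genes.

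Of the 8 most abundant members in proximal tubule, 5 had both mutants above both wild types and none passed the test. This compares with 31 of all 78 members and 15.7% of all genes there. Mrpl12 was at 452 and 378 CPM against 371 and 215 in proximal tubule, with a log2 fold change of 0.64 (SE 0.52, edgeR adjusted p = 0.686). Mrps21 was at 402 and 288 against 382 and 246, which overlap. Mrpl42 was at 327 and 267 against 273 and 199.5, which overlap too. Mrpl51 was at 267 and 256 against 207 and 146, and Mrpl20 at 250.2 and 211 against 196 and 145, without overlap. Mrpl30 (265 and 208 against 213 and 122) overlapped and Mrpl34 (248 and 192 against 181 and 155) did not. Mrps36, at 271 and 244 against 226 and 161, carries the name of a ribosomal protein but is known as a subunit of the oxoglutarate dehydrogenase complex.

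T cells shared some members at the ends with the proximal tubule. Mrps11 and Mrpl39 were among the largest fitted values in both classes, and Mrpl1 and Mrps9 among the lowest. In T cells the largest were Mrpl40 (log2 fold change 0.93, SE 0.39), Mrps11 (0.91), Mrpl39 (0.85) and Mrpl35 (0.84), each with an edgeR adjusted p of 0.753. Mrpl40 was at 63.4 and 66.3 CPM in the mutants against 51 and 26.5 in the wild types. The lowest were Mrps10 (-0.07), Mrps6 (0.14), Mrpl1 (0.17) and Mrps9 (0.19). Mrps10 was at 20.8 and 18.5 against 26 and 21.5, so both mutants were below both wild types. That order held for 1 of the 78 members and for 27.4% of all genes in T cells.

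In thick ascending limb the spread between libraries of a group was smaller (pooled SD of the log2 sum 0.049, against 0.337 in proximal tubule). That sum includes Mrps6, whose count is uncertain. Without Mrps6 the sums in thick ascending limb lay further apart within groups, at 8726 and 7836 CPM in the mutants against 6618 and 6945 in the wild types. The 4 members with the smallest p there were picked after their values were seen. Mrpl54 was at 199.6 and 195 CPM in the mutants against 121 and 124 in the wild types, with a log2 fold change of 0.85 (SE 0.21, edgeR adjusted p = 0.164). Mrpl51 was at 221 and 235 against 154 and 143. Mrpl38 (81.3 and 72.4 against 48.2 and 50.2) and Mrpl37 (40.7 and 47.2 against 28 and 22) were also apart. All 4 are large subunit proteins, their groups did not overlap, and none passed the test.

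The lowest fitted values in proximal tubule were those of Mrpl1, Mrps9, Mrps5 and Mrps27, of which Mrpl1 and Mrps9 alone were below 0. Mrps9, the small subunit counterpart of bacterial S9, was at 51.4 and 44.3 CPM in the mutants against 55.9 and 53 in the wild types of the proximal tubule. Both mutants were below both wild types in this unit, as held for 1 of the 78 members and 23.5% of all genes there. The fitted log2 fold change of Mrps9, which is relative to the typical gene, was -0.003 (SE 0.36, edgeR adjusted p = 0.999). Mrpl1, of the large subunit, was at 41 and 35.1 against 47.9 and 40, with a log2 fold change of -0.03. Mrps5 was at 64.3 and 50.6 against 67.3 and 54.1 (log2 fold change 0.09), and Mrps27, known to bind RNA, at 18.3 and 12.3 against 15.1 and 15.2 (0.20), both with overlap. Their fitted values across the 8 classes ran from -0.30 to 0.19 for Mrps9, -0.37 to 0.36 for Mrpl1, -0.12 to 0.59 for Mrps5 and -0.32 to 0.44 for Mrps27.

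Of these 4, 3 are among the longest members. Mrps9 spans 54.5 kb, Mrpl1 57.2 kb and Mrps27 70.8 kb in GENCODE M21, and Mrps5 19.6 kb, while the 78 members have a median span of 7.90 kb against 12.3 kb over all genes with a span. Mrps28, the longest at 122 kb, had a log2 fold change of 0.56 in proximal tubule. Across the 78 genes the correlation of log2 fold change with log10 span was r = -0.27 (Spearman's rho = -0.15) in proximal tubule and r = -0.20 (rho = -0.10) in T cells. It was largest in macrophages at r = -0.39 (rho = -0.35). Genes are not independent replicates, and no p is given.

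Over all genes, too, short ones had the higher fitted values in each of the 8 classes. In proximal tubule, the tested genes were put in 4 bins of equal number by span. Those of the shortest bin (up to 9.66 kb) had a median log2 fold change of 0.37, with 76% above 0, and the following bins had 0.17, -0.07 and -0.38. The shortest bin held 51 of the 78 members, whose median was 0.52, all above 0. The 17 members of the next bin had a median of 0.52, the 5 of the third 0.46 and the 5 of the longest 0.47. In the distal class the 53 members of the shortest bin had a median of 0.27 and all genes of that bin 0.28. In thick ascending limb these were 0.52 and 0.37, in T cells 0.56 and 0.37, in macrophages 0.65 and 0.39, in B cells 0.48 and 0.39, in dendritic cells 0.61 and 0.39, and in monocytes 0.49 and 0.33. The distance between the members and the other genes of their bin was not tested.

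**Figure D3:**
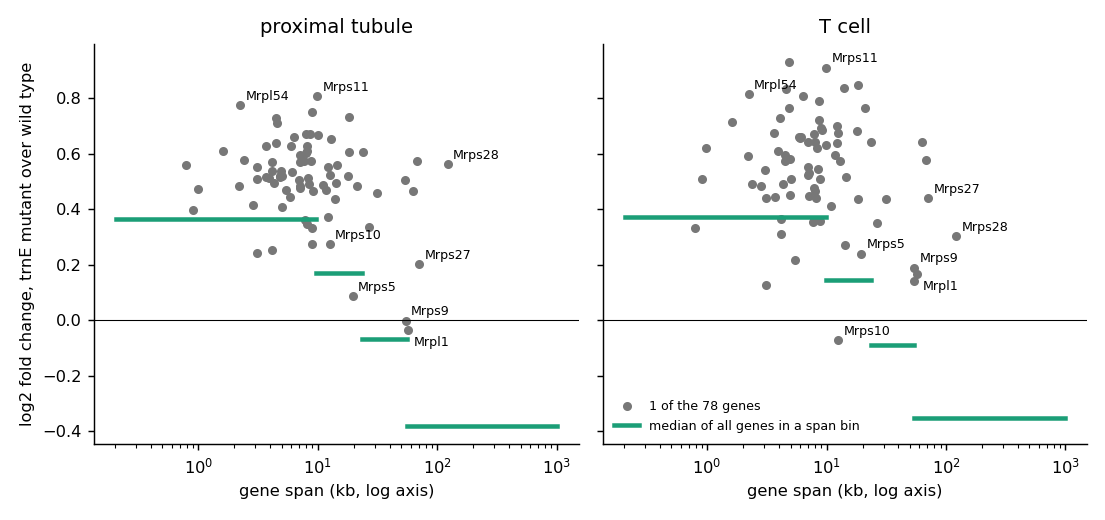
Log2 fold change of the 78 genes (vertical axis) against gene span in kb (log axis) in proximal tubule and T cells, with green bars for the median of all tested genes in each of 4 span bins of equal gene number (the longest bin is drawn to 1000 kb). The green bars step down from 0.37 to -0.38 in proximal tubule, and most members, long ones included, lie above them.

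Malat1, a nuclear RNA whose level rises with the share of nuclear RNA in a droplet, was read beside the members. For Malat1, both mutants were below both wild types in 7 of the 8 classes, as in T cells (11047 and 9118 against 14186 and 20703 CPM). In those 7 classes, 27.4% (T cells) to 35.4% (dendritic cells) of all genes had that order. The classes come from the same mice. In proximal tubule Malat1 was at 17367 and 6802 against 14977 and 43460, which overlap, with wild type 2 highest. Wild type 2 was also the library with the lowest level of the 78 genes there. The part of nuclear RNA in the members' values was not tested.

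Within the proximal tubule the level varied more between clusters than between libraries. The cluster with the lowest mitochondrial share (cluster 2, median 0.734% of UMIs) had 14971, 12268, 13432 and 11737 CPM of the 78 genes in mutant 1, mutant 2, wild type 1 and wild type 2. Cluster 15, rich in Malat1, had 5527, 3921, 3923 and 3063. In the 8 clusters with at least 30 cells in every library, mutant 1 was highest in 8 and wild type 2 lowest in 6, and both mutants exceeded both wild types in 2. The make-up differed between libraries: cluster 2 was 37.1% and 18.3% of mutant and 24.3% and 11.1% of wild-type proximal tubule cells. In the 4 clusters of middle depth alone (5, 6, 13 and 17) the median log2 fold change was 0.11, with 63 of 78 above 0, and in the 3 rich in nuclear RNA (11, 15 and 31) it was 0.55, with 75 above 0. These 2 subsets were chosen after the data were seen. Few cells of mutant 2 were in clusters 11, 15 and 31 (53, 31 and 1), and wild type 1 had 1 cell in cluster 31.

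**Figure D4:**
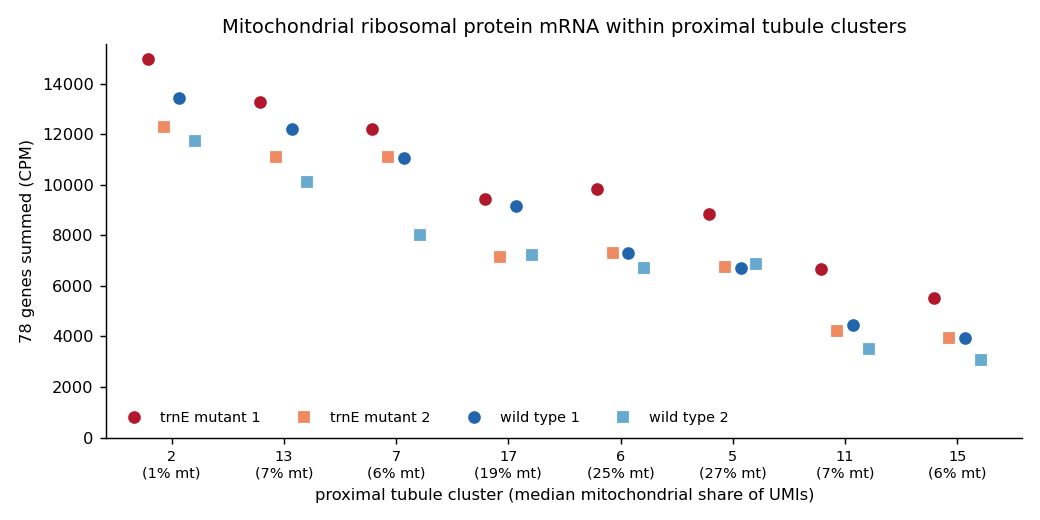
Summed CPM of the 78 genes (vertical axis, from 0) in 8 proximal tubule clusters, 1 point per library, ordered by mean level, with the median mitochondrial share below each cluster number. The level falls from 14971 at its highest to 3063 at its lowest, and mutant 1 is highest in each cluster.

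RNA of other cell types was also higher in the mutants' proximal tubule cells. The 9 macrophage markers summed to 803 and 493 CPM in the mutants against 403 and 216 in the wild types, and all 9 had the higher mean in the mutants. The 11 T cell markers summed to 91.2 and 238 against 42.4 and 41.3, with 10 of 11 higher. The 10 endothelial markers summed to 34.3 and 49.1 against 26.7 and 9.86, with 10 of 10 higher. None of these markers was at 0 in all libraries. In T cells the macrophage markers were at 499 and 195 CPM against 156 and 76, with 9 of 9 higher, and the endothelial ones at 95.7 and 111 against 108 and 147, with 8 of 10 higher. Proximal tubule markers in T cells went the other way, at 316 and 83.3 CPM against 125 and 451. Only 1 of these 12 was higher in the mutants, and 1 was at 0 in all libraries. Macrophages themselves held 3493 CPM of the 78 genes and T cells 4856, less than the proximal tubule at 7875. The part of this RNA in the members' values was not tested.

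The 2 subunits were then compared. By known place in the ribosome, 26 members belong to the small and 51 to the large subunit, which includes Mrps18a and Mrps30, and Mrps36 to neither. Without Mrps6, the ratio of small to large subunit UMIs in proximal tubule was 0.449 and 0.430 in the mutants against 0.467 and 0.474 in the wild types. Both mutants were below both wild types in 7 of the 8 classes, and the groups overlapped in dendritic cells (0.441 and 0.429 against 0.439 and 0.484). The log2 difference was between -0.11 in thick ascending limb and -0.03 in T cells, a small change, and with 2 against 2 the exact permutation p cannot go below 0.333. With Mrps6, the ratio in thick ascending limb was 0.594 and 0.642 against 0.748 and 0.730. By symbol, the 29 Mrps genes have a longer median span than the 49 Mrpl genes (8.89 kb against 7.1 kb). These sets by symbol are not the same as the 2 subunits of the ratio, and the part of span in the ratio was not tested.

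**Figure D5:**
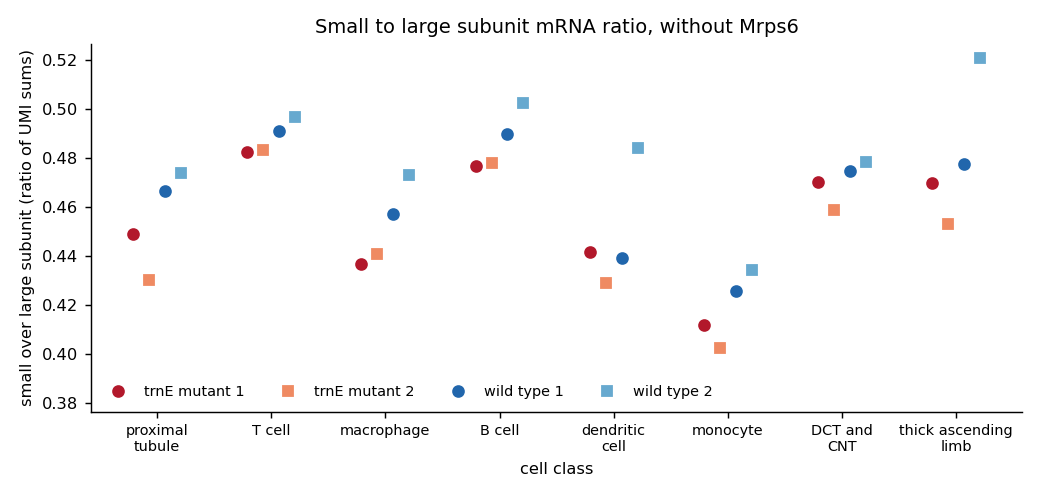
Ratio of summed small to large subunit UMIs without Mrps6 (vertical axis, not from 0) in 8 classes, 1 point per library; DCT and CNT is the distal convoluted and connecting tubule. The 2 mutants lie below the 2 wild types in 7 classes, by as little as 0.482 and 0.483 against 0.491 and 0.497 in T cells, and overlap them in dendritic cells.

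Members with a bacterial counterpart and members particular to mitochondria had like values in proximal tubule. In the large subunit the medians were 0.55 over the 30 with a counterpart (29 above 0) and 0.51 over the 21 without (21 above 0). In the small subunit they were 0.48 over 16 (15 above 0) and 0.55 over 10 (10 above 0). The 15 members known as human mitochondrial disease genes had a median of 0.50, all above 0. None of these was called.

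Other genes of the same system were read from lists. The 36 nuclear subunits of complex I, the first enzyme of the respiratory chain, had a median of 0.51 in proximal tubule with 36 above 0, beside 0.52 for the 78 members, and 0.43 in thick ascending limb. Ndufs8 was at 399 and 377 CPM against 335 and 166, and Ndufv1 at 306 and 306.5 against 273 and 120. The log2 ratio of the members' sum to theirs differed between groups by -0.01 in proximal tubule and by -0.11 to 0.05 over the 8 classes. The cytosolic ribosomal protein genes (83 of 86 tested) had a median of 0.46 in proximal tubule, with 82 above 0. In the distal class their median was 0.60 beside 0.26 for the members, and the log2 ratio of the sums differed by -0.30 without overlap (exact permutation p = 0.333, adjusted p = 0.762). The comparisons of these lists share the same libraries.

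Genes that build or assist the mitochondrial ribosome were read next. Of 29 assembly factors tested in proximal tubule 19 were above 0, with a median of 0.29. Rpusd3, a pseudouridine synthase, was at 41.3 and 32.2 CPM against 30.1 and 18.4. Mettl15, which methylates the small subunit RNA, was at 16.5 and 15 against 22.7 and 35.5, with a log2 fold change of -0.66 (SE 0.32, edgeR adjusted p = 0.548). Of 15 translation factors 12 were above 0, with a median of 0.18: Tsfm, an elongation factor, was at 103 and 78.5 against 80.8 and 53.4, and Gfm2, which recycles the ribosome, at 24.6 and 17.6 against 24.7 and 42.7. All 7 genes for charging and modifying the glutamate and glutamine transfer RNAs were above 0, with a median of 0.29 and levels that overlapped between groups for Gatc, Gatb, Qrsl1 and Gtpbp3. Of 5 mitochondrial ribosomal proteins with other symbols 4 were above 0, with a median of 0.39, among them Aurkaip1 (188 and 148 against 151 and 90.7) and Dap3 (80.1 and 79.5 against 84.1 and 59.7). None of these genes was called. In proximal tubule the log2 ratio of the members' sum differed between groups by 0.32 against the translation factors and by 0.25 against the assembly factors, without overlap and not past the test (exact permutation p = 0.333, adjusted p = 0.762 for each).

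The mRNAs that the ribosome translates were read beside the 78 genes. The 13 mitochondrially encoded mRNAs had a median of 0.23 in proximal tubule with 11 above 0 and 0 called, beside 0.52 for the members. Their median was between -0.19 (monocytes) and 0.24 (thick ascending limb) in T cells, B cells, macrophages, monocytes and thick ascending limb. In dendritic cells it was -0.83, with all 13 below 0, and in the distal class it was 0.48, above the 0.26 of the members. None was called in any class by edgeR in the main fit. The lowest log2 fold change of the 13 in proximal tubule was -1.75. There mt-Nd6 had the smallest p of the 13, and it was called in 3 alternative settings and not in 13. In proximal tubule mt-Nd3 was at 710 and 1235 CPM in the mutants against 1455 and 2710 in the wild types, without overlap, and mt-Nd5 at 1164 and 3428 against 1359.9 and 1956. The log2 ratio of the 78 genes to the mitochondrially encoded sum was -3.07 and -4.41 in the mutants against -4.01 and -4.42 in the wild types. Mutant 1 stood apart from the other 3, which goes with its proximal tubule cells having a median of 2.71% mitochondrial UMIs, against 10.6% to 15.4% in the others. The group difference of 0.47 had an exact permutation p of 0.667.

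Of the lists, 1 held a called gene in proximal tubule, the integrated stress response. Gdf15, a secreted stress cytokine, was at 59.3 and 20.2 CPM in the mutants against 7.01 and 11.5 in the wild types of the proximal tubule, with a log2 fold change of 2.29 (SE 0.42, edgeR adjusted p = 0.045). The call was lost without mutant 1 (log2 fold change 1.47, adjusted p = 0.196), without wild type 2 (2.48, adjusted p = 0.0992) and with library totals (2.10, adjusted p = 0.195). Of 12 integrated stress response genes tested there, 12 were above 0, with a median of 0.82, and only Gdf15 was called. Atf5 (24.9 and 10 against 5.48 and 3.94), Asns (4.87 and 3.56 against 1.52 and 1.33) and Phgdh (50.4 and 45.7 against 31.2 and 14.9) did not overlap between groups and did not pass the test.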

How the data were processed

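Per the labels' protocols, viable sorted kidney cells were loaded on a droplet 3′ kit. The authors deposited raw UMI counts per gene and barcode, made with Cell Ranger 7.0.0 (mutants) or 7.1.0 (wild types) per the file headers, and with mm10 per the submitters' processing notes. The sources used here give no other settings. Kept barcodes had 200 genes or more, 500 UMIs or more and no more than 50% mitochondrial UMIs. Scrublet doublets (90 to 267 per library) were removed. Log-normalized, scaled counts of 2000 variable genes gave 30 components, 15 neighbours and Leiden clusters at resolution 1 (scanpy 1.11.5, leidenalg 0.10.2). Scaling was chosen after unscaled settings had not separated the distal tubule classes by their markers. Clusters took the name of the leading marker list, and 2 stayed unnamed. No correction for free RNA or library effects was made.

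UMI counts were summed per library and class, passed through filterByExpr, given TMM factors and tested with edgeR 4.0.16 (quasi-likelihood, Benjamini-Hochberg over all genes of a class, threshold 0.05); DESeq2 1.42.0 was an alternative. Sums and ratios were compared by exact two-sided permutation. The test was tested on simulated data: of genes changed 2-fold it found 4.4% in proximal tubule and 39.8% in thick ascending limb, and of genes changed 4-fold 73.4% and 99%. The rule named the 8 most abundant members in proximal tubule, the 4 largest and 4 lowest fitted values in proximal tubule and T cells among members with at least 10 CPM, every negative one in proximal tubule, the 4 that differ most between classes, and up to 4 genes of each other list by p. Positions are from GENCODE M21, which matched 78 of 78 members. The members and lists were chosen with earlier results of these data known. P-values measure the spread between 2 mice a group.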

Additional observations from a re-analysis of the deposited data

How the results depend on the processing

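No member was called under any alternative that kept all 4 libraries, with the exception of Mrpl23 in macrophages with the replicate block (1 called), which paired libraries by the number in their titles. Nothing else shows that these numbers pair the mice: over all tested genes, the differences between libraries 1 and 2 in mutant and wild type correlated at r = -0.21 in proximal tubule to 0.28 in monocytes. Under each alternative that kept all 4 libraries, the summed level moved by less than the spread within groups, with 1 exception. Without Mrps6, left out after the data were seen, the log2 difference of the sums in thick ascending limb was 0.29, against 0.22 with it. The ratios to complex I and to mitochondrially encoded genes moved by less than their own spread. With 1 library left out, the shift cannot exceed the spread when a group has 2 libraries, so those runs do not test stability. That spread was wide in proximal tubule (pooled SD of the log2 sum 0.337).

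Members called ranged with 1 library left out from 0 to 65 in proximal tubule, 0 to 9 in macrophages, 0 to 1 in B cells, 0 to 3 in dendritic cells, 0 to 1 in monocytes, 0 to 4 in the distal class and 0 to 6 in thick ascending limb, and stayed at 0 in T cells. Their median log2 fold change ranged from 0.11 to 1.14 in proximal tubule, 0.27 to 0.91 in T cells, 0.32 to 1.14 in macrophages, 0.23 to 0.71 in B cells, 0.36 to 1.03 in dendritic cells, 0.13 to 0.83 in monocytes, 0.15 to 0.42 in the distal class and 0.40 to 0.55 in thick ascending limb. With library totals in place of TMM, which shift all genes, it was 0.34 in macrophages, 0.20 in B cells, 0.31 in dendritic cells, 0.086 in the distal class, 0.28 in thick ascending limb, 0.29 in monocytes, 0.36 in T cells and 0.36 in proximal tubule. In proximal tubule clusters of middle depth it was 0.11. The log2 ratio to cytosolic ribosomal genes was -0.36 in the distal class at no more than 25% mitochondrial UMIs and -0.25 with doublet calls kept. In dendritic cells it was 0.091 at Leiden resolution 0.5, where the class was not made of the same cells. The cluster led by Cd209a, dendritic in the main run, stayed unnamed there. The class then held only the cluster led by Xcr1, with 16 cells in wild type 2, fewer than asked of a tested class. The cause of these shifts was not tested.

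The sign of some fitted values turned, and none was called where it had turned. In proximal tubule Mrps9 was 0.012 with the replicate block, 0.043 at 25% mitochondrial UMIs and 0.0059 with doublets kept, Mrps5 -0.079 with library totals, -0.23 in clusters of middle depth and -0.083 in those rich in nuclear RNA, and Mrps21 -0.094 in clusters of middle depth. Among the other named genes, Dap3 (-0.042) and Gtpbp3 (-0.017) turned in clusters of middle depth, and Gatc (-0.11) and Gatb (-0.011) in those rich in nuclear RNA. The call of Gdf15 was also lost with mitochondrially encoded genes left out, doublets kept or only the clusters rich in nuclear RNA (adjusted p = 0.0582, 0.126 and 0.0677). In T cells, library totals gave -0.044 for Mrps6, -0.038 for Mrpl1 and -0.020 for Mrps9. With 1 library left out, the log2 fold change of these ran as follows in proximal tubule: Mrps21 from -0.16 to 0.91, Mrpl1 from -0.34 to 0.35, Mrps9 from -0.23 to 0.27, Mrps5 from -0.24 to 0.50, Dap3 from -0.072 to 0.85, Tufm from -0.065 to 1.5, Gatb from -0.089 to 0.95, mt-Nd5 from -0.38 to 1.39, mt-Nd4l from -0.55 to 1.26 and Mrps10 from -0.28 to 0.18 in T cells. At this depth and with 2 mice a group, changes of the size seen here are mostly under what the test can call.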
